A study of Mus musculus with 94 samples.

Results

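Inguinal white adipose tissue, the subcutaneous fat pad of the groin, was compared between obese and lean mice by sequencing of poly(A) RNA. The comparison used the 11 inguinal libraries whose titles name diet-induced obesity (5 mice) or the lean control of that time point (6 mice), out of 94 libraries in the series and 47 from inguinal fat. All 11 mice were male C57BL/6JBomTac animals, and the labels name no engineered allele and no drug. The 5 obese mice ate the high-fat diet D12492 from 10 to 28 weeks of age, a feeding period of 18 weeks. The 6 lean mice were kept on the low-fat diet D12450J to the same age. All animals had first been accustomed to D12450J, so both groups began on the same food. The epididymal (gonadal) fat of the same 11 mice, and the inguinal fat of 6 mice returned to D12450J for 2 weeks with their own 6 lean controls (30 weeks of age), served only to test where the inguinal difference was unlike another one. Each library stands for 1 mouse. Mice shared enclosures, but which mice did so is not stated by the sources used here, so enclosure was not in any fit. The p-values therefore treat the mice as independent and measure the spread between single mice within groups, not between enclosures.

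White fat stores energy as triglyceride in large adipocytes and releases it as fatty acids. Insulin drives glucose into adipocytes and switches on de novo lipogenesis, which builds fatty acids from citrate made in mitochondria. Inguinal fat of mice also holds beige adipocytes, which can express the heat-producing protein Ucp1. As fat expands, adipocytes enlarge and secrete more leptin, and the stroma around them, made of fibroblasts, vessels and macrophages, is remodelled.

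The libraries matched their tissue label. Adiponectin (Adipoq) lay at 2615 to 3444 CPM in obese mice and at 2864 to 3631 CPM in lean mice, where CPM are counts per 1000000 counts of the TMM-scaled library. The lipid droplet coat protein gene Plin1 lay at 1955 to 3027 CPM in obese mice and at 2317 to 2848 CPM in lean mice. Neither was called different, while of the 10 adipocyte identity markers 4 were called lower and 1 higher (median log2 fold change -0.39; 2 lower and 2 higher when scaled by library totals alone). The subcutaneous patterning genes Tbx15 and Hoxc9 were detected in every library without a call. Wt1 and Upk3b, which mark epididymal fat and its mesothelium, did not pass the filter on low counts. Libraries held 9.03 to 12.96 M counts in obese mice and 7.92 to 17.3 M in lean mice (mean 10.5 ± 1.57 against 12.3 ± 3.79 M, SD, exact permutation test, two-sided p = 0.351). Skeletal muscle RNA was present in unequal amounts in both groups: the mean log2 CPM of the muscle markers was 7.29, -0.36, 7.82, 2.83 and 7.26 in obese mice 1 to 5 and ran from 0.29 to 8.81 in lean mice, and 0 of 12 muscle genes were called by edgeR or DESeq2 (0 at an unadjusted p under 0.05). A lymph node signal (mean log2 CPM of B cell markers) was highest in lean mouse 6 at 3.58, followed by obese mouse 5 at 2.12, and 0 of 13 B cell and lymph node genes were called by edgeR or DESeq2 (0 at an unadjusted p under 0.05). The part of either signal in the differences that follow was not tested beyond a fit with both as covariates, which called 4996 genes.

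Genes whose adjusted p (Benjamini-Hochberg) lay under 0.05 in edgeR's quasi-likelihood test, fitted on all 47 inguinal libraries, are given here as called. In all 4195 of 13899 genes (30.2%) were called, 2037 higher (14.7%) and 2158 lower (15.5%) in obese mice, with a median log2 fold change of 0.02 over all genes. The change reached at least 2-fold for 26.0% of the genes called higher and 18.2% of those called lower. The groups did not overlap for 2366 of the 13899 genes (17.0%). The counts of the gene lists that follow, and the genes whose groups were separate, are to be read against these shares. Some lists share members, so their counts are not independent. For example, the complement and pan-macrophage lists share the C1q chains. The citrate cycle and complex II to IV lists share the succinate dehydrogenase subunits. The TMM scaling matters here because Scd1 and Fasn alone took 2.70 to 6.61% of all counts in obese mice and 15.1 to 20.2% in lean mice. Scaled by library totals alone, the median of all genes stood 0.24 higher on the log2 scale and 4650 genes were called higher against 973 lower, or 82.7% higher among the calls in place of 48.6%.

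Genes for enzymes of fatty acid synthesis were lower in obese mice. All 16 of 16 de novo lipogenesis enzymes were called lower, with a median log2 fold change of -2.30, the lowest median of the 62 gene lists examined. The desaturases Scd2 and Fads1 overlapped between groups, the other 14 did not, and the call of Scd2 (adjusted p = 0.0207) was lost without lean mouse 3 or obese mouse 1 or 3. The promoters of Fasn, Thrsp and Mlxipl are shown first because these genes stand for the enzymes, a lipogenic cofactor and a transcription factor of the pathway, and because their response to nutrition is known to run through short DNA motifs. Capitals mark matches on either strand to the CCAAT box (CCAAT), to the E-box (CACGTG) and to the core of a sterol response element (TCACNCCAC). Each window runs from 250 bases before to 50 bases after a transcription start in RefSeq on GRCm38.p6, read along the gene's own strand.
Fasn, chr11:120824498-120824797, minus strand: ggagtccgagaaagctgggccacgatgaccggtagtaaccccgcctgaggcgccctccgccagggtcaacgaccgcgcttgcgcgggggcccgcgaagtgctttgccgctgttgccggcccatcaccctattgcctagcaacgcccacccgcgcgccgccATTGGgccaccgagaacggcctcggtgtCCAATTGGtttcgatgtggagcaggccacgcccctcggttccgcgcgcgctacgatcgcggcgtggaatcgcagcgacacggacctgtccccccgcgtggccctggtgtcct
Thrsp, chr7:97417501-97417800, minus strand: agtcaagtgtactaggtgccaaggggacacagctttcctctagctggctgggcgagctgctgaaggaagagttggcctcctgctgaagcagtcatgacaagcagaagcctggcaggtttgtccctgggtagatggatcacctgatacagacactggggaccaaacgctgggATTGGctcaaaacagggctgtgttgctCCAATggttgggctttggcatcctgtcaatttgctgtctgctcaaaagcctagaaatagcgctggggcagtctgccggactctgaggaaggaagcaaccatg
Mlxipl upstream start, chr5:135089640-135089939, plus strand: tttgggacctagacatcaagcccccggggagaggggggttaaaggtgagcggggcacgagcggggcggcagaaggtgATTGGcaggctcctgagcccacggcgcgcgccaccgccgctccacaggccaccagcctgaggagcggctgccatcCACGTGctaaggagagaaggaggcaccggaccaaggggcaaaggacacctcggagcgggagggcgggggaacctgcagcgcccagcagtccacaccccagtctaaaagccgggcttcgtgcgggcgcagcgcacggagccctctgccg
Mlxipl downstream start, chr5:135106641-135106940, plus strand: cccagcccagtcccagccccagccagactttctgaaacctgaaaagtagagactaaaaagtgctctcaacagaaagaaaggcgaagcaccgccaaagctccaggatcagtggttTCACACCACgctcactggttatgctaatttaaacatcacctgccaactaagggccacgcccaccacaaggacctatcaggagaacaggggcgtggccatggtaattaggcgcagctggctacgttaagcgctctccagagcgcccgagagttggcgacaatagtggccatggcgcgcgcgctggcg

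The Fasn window held 3 CCAAT matches, at -90, -62 and -59 from the start, of which the last 2 overlap. The Thrsp window held 2, at -79 and -52. At Mlxipl, the upstream window held a CCAAT match at -173 and an E-box at -98, and the downstream window held a sterol response element core at -136. Among all 32851 windows of the RefSeq table, 37.4% held a CCAAT box, 7.15% an E-box and 1.24% the sterol core. Of the 16 enzymes 13 had a window (14 windows in all), and 9 windows held a CCAAT box, 2 an E-box and 0 the sterol core. Of the 14 lipogenic regulators, to which Thrsp and Mlxipl belong, 13 had a window (21 windows in all), and 9 windows held a CCAAT box, 5 an E-box and 1 the sterol core. These are matches of letters and not measured binding.

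Fasn, the fatty acid synthase (chromosome 11, 120805846 to 120824547 in mm10), had 2026, 2473, 977, 1650.4 and 8224 CPM in obese mice 1 to 5, against a lowest, median and highest value of 25669, 30566 and 38839.6 CPM in lean mice. Every obese mouse lay below every lean mouse, and obese mouse 5 stood well above the other obese mice. The log2 fold change was -3.35 ± 0.51 (SE, adjusted p = 5.26e-06, n = 5 and 6). Elovl6, which lengthens palmitate to stearate (chromosome 3, 129532355 to 129638495), had 40.2, 51.6, 26.6, 44.1 and 202 CPM in obese mice, against 2487, 3544 and 4679.7 CPM in lean mice as lowest, median and highest. The groups were again separate, obese mouse 5 was again the highest of its group, and the change was -5.62 ± 0.65 (adjusted p = 1.03e-07). Acly, which splits citrate into acetyl-CoA in the cytosol, stood at 107 to 520.4 CPM in obese mice and 2226 to 4586 CPM in lean mice (-4.01 ± 0.51, adjusted p = 4.18e-07). Acaca, which makes malonyl-CoA, stood at 116 to 721 CPM in obese mice and 2281 to 3608 CPM in lean mice (-3.41 ± 0.45, adjusted p = 6.15e-07). Scd1, the desaturase that makes oleate, had 33494 ± 12378 CPM in obese mice and 157586 ± 26081 CPM in lean mice (-2.23 ± 0.29, adjusted p = 5.83e-07). Mouse 5 was the highest obese mouse for each of the 8 genes in the plot of lipogenic genes by mouse and for 10 of the 16 enzymes, while it was the lowest for Elovl5.

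**Figure D1:**
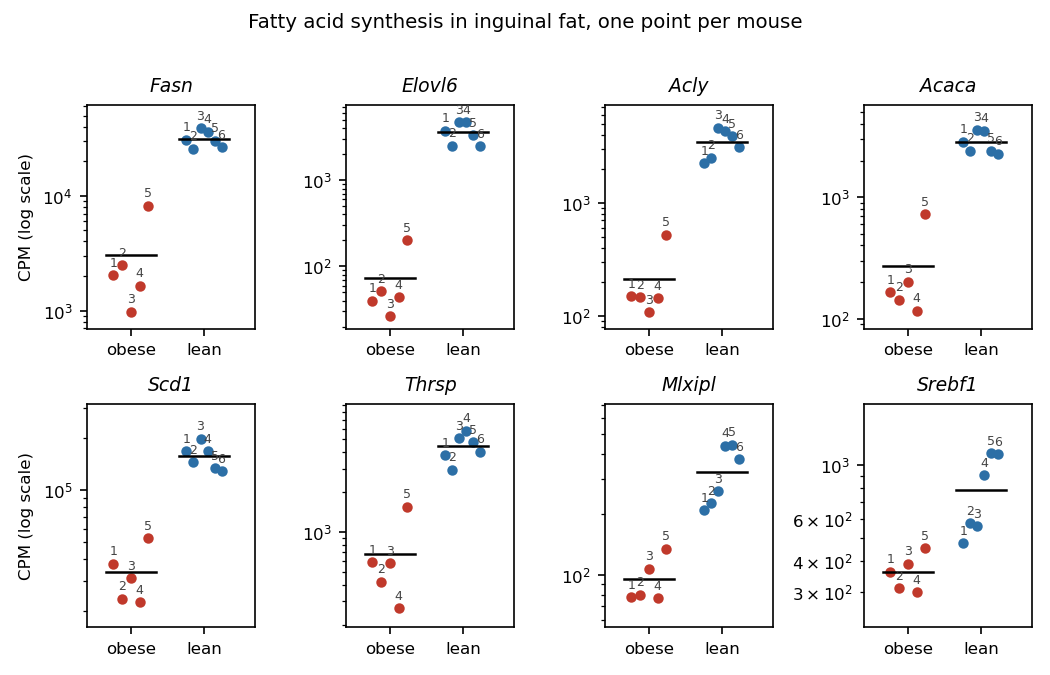
CPM of 8 genes of fatty acid synthesis in inguinal fat on log axes, with 5 obese mice on the left and 6 lean mice on the right of each panel, each point 1 mouse with its replicate number and the horizontal line the group mean. Every obese mouse lies below every lean mouse in each panel, for example Fasn at 977 to 8224 CPM in obese mice and 25669 to 38839.6 CPM in lean mice.

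Genes that supply the pathway with citrate, acetate and NADPH were also lower. Slc25a1, which exports citrate from mitochondria, changed by -2.37 ± 0.39, and the NADPH source Me1 by -2.84 ± 0.43, both without overlap between groups. Acss2, which activates acetate, changed by -2.97 ± 0.46. Of the pentose phosphate and NADPH enzymes 7 of 9 were called lower and 0 higher, Me1 among them, with the transketolase Tkt at -2.97 ± 0.41 (137 to 348 CPM in obese mice and 1191 to 2101 CPM in lean mice) and the transaldolase Taldo1 at -1.41 ± 0.25. The smallest fall among the enzymes of fatty acid synthesis was that of the elongase Elovl5 (-0.85 ± 0.14).

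Of the lipogenic regulators 6 of 14 were called lower and 0 higher. Thrsp, a nuclear protein that accompanies lipogenesis, had 594, 421.3, 580.1, 267 and 1549.6 CPM in obese mice, against 2951, 4404 and 5798 CPM in lean mice as lowest, median and highest (-2.69 ± 0.44, adjusted p = 1.42e-05). Mlxipl, the carbohydrate-sensing factor ChREBP (chromosome 5, 135089890 to 135138382), had 77.7, 79.8, 107, 77.0 and 135 CPM in obese mice, against 209, 319 and 442.2 CPM in lean mice. The groups did not overlap for either gene, and the change of Mlxipl was -1.77 ± 0.27 (adjusted p = 6.48e-06). Counts per gene do not tell its upstream and downstream starts apart. Srebf1, a sterol-regulated factor that also drives lipogenesis under insulin, changed by -1.12 ± 0.26 (adjusted p = 0.00133), and Insig1, its retention partner in the endoplasmic reticulum, by -1.30 ± 0.37. Among lean mice Srebf1 was uneven, from 476.7 CPM in lean mouse 1 to 1115 CPM in lean mouse 5. The liver X receptor Nr1h3 was not called (63.3 to 80.1 CPM in obese mice and 58.9 to 74.5 CPM in lean mice).

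Single genes for sugar transport changed, in either direction. Slc2a5, the fructose transporter (chromosome 4, 150119283 to 150144169), had 0, 0.142, 0.0885, 0 and 1.48 CPM in obese mice, against 41.4, 63.8 and 85.8 CPM in lean mice as lowest, median and highest. It was near 0 in 4 of the obese mice, and the change was -7.58 ± 0.82 (adjusted p = 2.87e-08). The insulin-responsive glucose transporter Slc2a4 (GLUT4) had 169, 163, 173, 119.7 and 227 CPM in obese mice and 353 to 563 CPM in lean mice (-1.44 ± 0.23). Slc2a10, an intracellular hexose transporter, went the other way at 1.22 ± 0.20. In all 2 of 10 hexose transporters were called higher, 2 lower and 6 not, near the shares of all genes (14.7% higher and 15.5% lower).

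Genes of glycolysis and of pyruvate entry into mitochondria were called lower or not called. Of 17 glycolytic genes 11 were called lower and 0 higher, among them Hk2 (-1.33 ± 0.30), Pkm (-1.76 ± 0.26), Gapdh (-1.46 ± 0.26) and Ldha (-0.88 ± 0.19), whose products act from the first to the last steps of the pathway. Hk1 was not called (0.27 ± 0.11, adjusted p = 0.0705). Of 27 genes for pyruvate carriers, pyruvate dehydrogenase and the citrate cycle 26 were called lower and 0 higher, with a median of -1.06. Pdk1, a kinase that restrains pyruvate dehydrogenase, had 38.0, 41.5, 42.5, 38.6 and 72.2 CPM in obese mice, against 200.3, 235 and 289.8 CPM in lean mice as lowest, median and highest. The groups were wide apart, and the change was -2.38 ± 0.22 (adjusted p = 1.25e-09). The pyruvate carrier subunit Mpc1 changed by -2.07 ± 0.32, the dehydrogenase subunits Pdha1 and Pdhb by -1.92 ± 0.27 and -2.02 ± 0.29, pyruvate carboxylase Pcx by -1.79 ± 0.30 and citrate synthase Cs by -0.98 ± 0.20. The member that was not called was Pdk4, with 164, 149, 279, 55.5 and 181 CPM in obese mice, against 125, 399.5 and 779 CPM in lean mice (-1.37 ± 0.55, adjusted p = 0.0526).

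**Figure D2:**
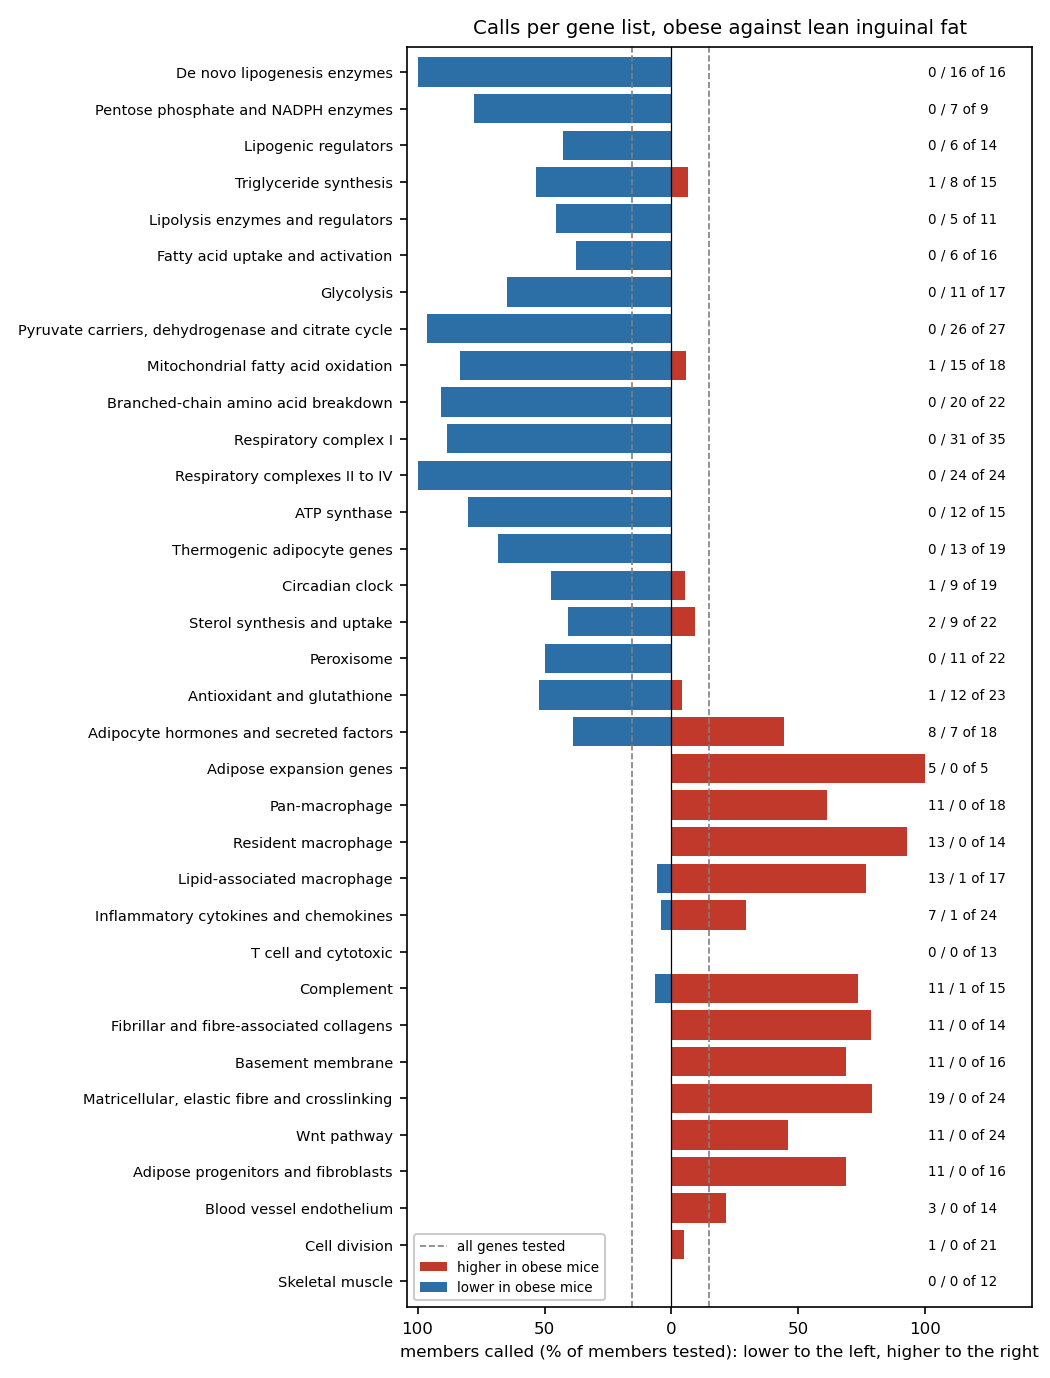
Share of tested members of 34 gene lists that were called higher (red, to the right) or lower (blue, to the left) in obese than in lean inguinal fat, in % of the members tested, with the numbers higher / lower of tested at the right and dashed lines at the shares over all genes tested (14.7% higher and 15.5% lower). Metabolic lists extend to the left, with 16 of 16 de novo lipogenesis enzymes lower, while matrix and resident macrophage lists extend to the right, with 13 of 14 resident macrophage genes higher.

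Nuclear genes of the respiratory chain were lower in nearly every case, by smaller amounts than the lipogenic enzymes. Of complex I 31 of 35 subunits were called lower (median -0.74), of complexes II to IV 24 of 24 (median -0.87) and of ATP synthase 12 of 15 (median -0.57), and 0 were called higher. Ndufa10 of complex I changed by -1.17 ± 0.21 with 43.2 to 58.2 CPM in obese mice and 92.5 to 129 CPM in lean mice. Cytochrome c (Cycs) changed by -1.20 ± 0.21, Uqcrfs1 of complex III by -1.16 ± 0.20, Cox5a of complex IV by -1.06 ± 0.24 and Atp5b of ATP synthase by -0.85 ± 0.19. None of these 5 genes overlapped between groups. Scaled by library totals alone, 6 of the 15 ATP synthase genes were called lower. The genes encoded by mitochondrial DNA were not analysed here.

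Genes for the breakdown of fatty acids and of branched-chain amino acids in mitochondria were mostly lower too. Of 18 genes of fatty acid oxidation 15 were called lower and 1 higher. The exception was Cpt1a, the liver-type carnitine palmitoyltransferase that admits fatty acids to mitochondria, with 153, 175, 145, 183 and 147 CPM in obese mice, against 69.4, 89.8 and 92.0 CPM in lean mice (0.90 ± 0.13, adjusted p = 1.34e-06). Its muscle-type counterpart Cpt1b had 3.50, 4.84, 4.60, 4.15 and 7.80 CPM in obese mice, against 11.9, 25.8 and 35.7 CPM in lean mice (-2.23 ± 0.44, adjusted p = 0.000168). The groups were separate for each gene, and the counts of the isoforms went in opposite directions. Of the exonic bases of Cpt1b 94.8% overlap exons of another gene, so its counts are uncertain. The subunits of the trifunctional protein Hadha and Hadhb changed by -1.38 ± 0.23 and -1.49 ± 0.25. Of 22 genes of branched-chain amino acid breakdown 20 were called lower and 0 higher, by a median of -0.57, and 11 were called lower when scaled by library totals alone. Bckdha, a subunit of the branched-chain ketoacid dehydrogenase, changed by -0.96 ± 0.18, the mitochondrial branched-chain amino acid carrier Slc25a44 by -0.97 ± 0.18 and Hibch of the valine route by -1.04 ± 0.19. The first enzyme, the transaminase Bcat2, had a call that was lost without obese mouse 4 (-0.51 ± 0.16, adjusted p = 0.0166).

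Thermogenic genes fell in 13 of 19 members tested, and 0 rose. Ucp1 had 0, 0.214, 0.0885, 0.593 and 4.34 CPM in obese mice, against 3.44, 56.4 and 99.6 CPM in lean mice as lowest, median and highest (-5.76 ± 1.14, adjusted p = 0.000185). The ranges overlapped, because lean mouse 2 had 3.44 CPM and obese mouse 5 had 4.34 CPM. Elovl3, an elongase of thermogenic fat, had 0.666, 1.42, 0, 0.495 and 0.494 CPM in obese mice, against 1.83, 16.8 and 27.3 CPM in lean mice (-4.56 ± 0.79, adjusted p = 3.7e-05). Cidea, a lipid droplet protein of brown and beige cells, had 14.6, 19.6, 14.8, 12.5 and 31.0 CPM in obese mice, against 131, 221 and 289 CPM in lean mice (-3.52 ± 0.49, adjusted p = 1.59e-06). Otop1, an ion channel gene, changed by -1.30 ± 0.43 (adjusted p = 0.0185), a call lost without lean mouse 3, obese mouse 1 or obese mouse 3. The coactivators Ppargc1a and Ppargc1b, which drive mitochondrial genes, changed by -1.03 ± 0.25 and -1.57 ± 0.22. The factor Prdm16, which specifies brown and beige adipocytes, was not called (32.9 to 59.0 CPM in obese mice and 24.3 to 47.5 CPM in lean mice), and neither was the thyroid hormone deiodinase Dio2. In whole tissue, fewer cells of a type and less RNA per cell cannot be told apart.

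Genes of triglyceride handling changed in part. Of the genes of triglyceride synthesis 8 of 15 were called lower and 1 higher (2 higher without lean mouse 5 or obese mouse 5, and 3 when scaled by library totals alone), with Gpd1 (-1.20 ± 0.25), which makes glycerol 3-phosphate, the acyltransferases Gpam (-1.08 ± 0.27) and Agpat2 (-1.16 ± 0.33), and Dgat1 (-0.89 ± 0.20) among those that fell. Dgat2, the other enzyme of the last step, had 2634, 3937, 1342, 4420.3 and 2918 CPM in obese mice, against 1839, 2707 and 3323 CPM in lean mice, and was not called. The mitochondrial glycerol 3-phosphate dehydrogenase Gpd2, a shuttle enzyme outside that list, had 56.6, 58.8, 62.4, 39.6 and 123 CPM in obese mice, against 383, 481.8 and 674 CPM in lean mice (-2.88 ± 0.35, adjusted p = 1.54e-07). Of the lipolysis list 5 of 11 were called lower and 0 higher. The triglyceride lipase Pnpla2 had 2467, 2298, 2629, 1628 and 2220.1 CPM in obese mice, against 3764.1, 4449 and 5287 CPM in lean mice (-1.003 ± 0.20, adjusted p = 0.000168), and the hormone-sensitive lipase Lipe changed by -0.56 ± 0.17. Both were separate between groups. Hcar1, the lactate receptor that restrains lipolysis, also fell (-1.16 ± 0.30). The adrenergic receptor Adrb3 had 432.9, 415.7, 914, 217 and 1318 CPM in obese mice, against 760.5, 959 and 1598 CPM in lean mice, and missed the call (-0.71 ± 0.30, adjusted p = 0.0734), with obese mice 3 and 5 inside the lean range. Without either of these mice it was called.

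Of 11 lipid droplet genes 2 were called higher and 2 lower, Cidea among the latter, near the shares of all genes (14.7% and 15.5%). The second count ran from 1 to 3 with 1 mouse left out, and was 1 when scaled by library totals alone. Hilpda, a small inhibitor of the lipase Pnpla2 on lipid droplets, had 36.1, 33.5, 21.5, 72.4 and 16.0 CPM in obese mice, against 6.68, 10.6 and 13.6 CPM in lean mice (1.80 ± 0.24, adjusted p = 6.28e-07). Every obese mouse was above every lean mouse, by least in obese mouse 5. Plin4, a coat protein of adipocyte droplets, also rose (0.58 ± 0.19). Of the uptake genes 6 of 16 were called lower and 0 higher, among them the transporter Slc27a1 (-1.18 ± 0.26) and the binding protein Fabp4 (-0.59 ± 0.20, adjusted p = 0.0194, lost without lean mouse 3, obese mouse 4 or obese mouse 5). The list's count was 3 without lean mouse 3. Neither the fatty acid translocase Cd36 (1482 to 2761 CPM in obese mice and 1815 to 2748 CPM in lean mice) nor lipoprotein lipase (Lpl) was called.

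Leptin and the genes that track adipocyte expansion were higher in obese mice, to very different degrees in single animals. Lep (chromosome 6, 29060220 to 29073877) had 3465, 5847, 963, 6042 and 1512 CPM in obese mice 1 to 5, against 274, 611 and 1615 CPM in lean mice as lowest, median and highest (2.13 ± 0.39, adjusted p = 6.67e-05). Obese mice 3 and 5 lay inside the lean range, while mice 1, 2 and 4 lay above it. All 5 of 5 expansion genes were called higher, in a list chosen with earlier results of these data known. The secreted Wnt inhibitor Sfrp5 had 476.5, 659, 90.6, 688 and 102 CPM in obese mice, against 27.5, 41.7 and 64.9 CPM in lean mice (3.24 ± 0.45, adjusted p = 1.39e-06), with no overlap but again with mice 3 and 5 lowest. The imprinted gene Mest, which marks fat expansion, had 203, 523, 65.0, 478.1 and 124 CPM in obese mice, against 10.1, 24.4 and 96.2 CPM in lean mice (2.99 ± 0.65, adjusted p = 0.000529). Mice 3 and 5 were once more the low ones, and mouse 3 lay within the lean range. Npr3, the clearance receptor for natriuretic peptides, had 1323, 2031, 579.5, 1826 and 1376 CPM in obese mice, against 323, 494 and 836 CPM in lean mice (1.34 ± 0.31), and here mouse 3 alone was low.

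The same mice stood apart for the genes with the largest rise. Tph2, a tryptophan hydroxylase of serotonin synthesis, had 24.5, 106, 3.10, 104 and 5.92 CPM in obese mice, against 0.418, 1.16 and 3.41 CPM in lean mice (5.12 ± 0.71, adjusted p = 1.34e-06). Slc5a7, the high-affinity choline transporter, had 39.0, 86.3, 3.54, 97.03 and 15.5 CPM in obese mice, against 0.447, 0.841 and 5.94 CPM in lean mice (4.88 ± 0.68, adjusted p = 1.39e-06). For both genes mouse 3 lay within the lean range and mice 2 and 4 were highest. Sez6l, a neuronal membrane protein, had 13.5, 20.4, 2.57, 24.8 and 2.96 CPM in obese mice and at most 0.891 CPM in a lean mouse (5.19 ± 0.71). Itgad, an integrin of macrophages, had 21.2, 14.3, 1.42, 18.4 and 0.888 CPM in obese mice and at most 0.958 CPM in a lean mouse (5.06 ± 0.88). The desmosomal plakophilin Pkp1 had 13.7, 19.9, 0.531, 15.8 and 2.86 CPM in obese mice, against 0.297, 0.653 and 1.497 CPM in lean mice (3.69 ± 0.62). By contrast Peg3, an imprinted zinc finger gene, had 77.5, 118, 141, 94.6 and 78.4 CPM in obese mice, against 8.56, 13.6 and 18.7 CPM in lean mice (2.91 ± 0.39, adjusted p = 7.12e-07), so all 5 obese mice were clearly above the lean ones and mouse 3 was the highest.

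**Figure D3:**
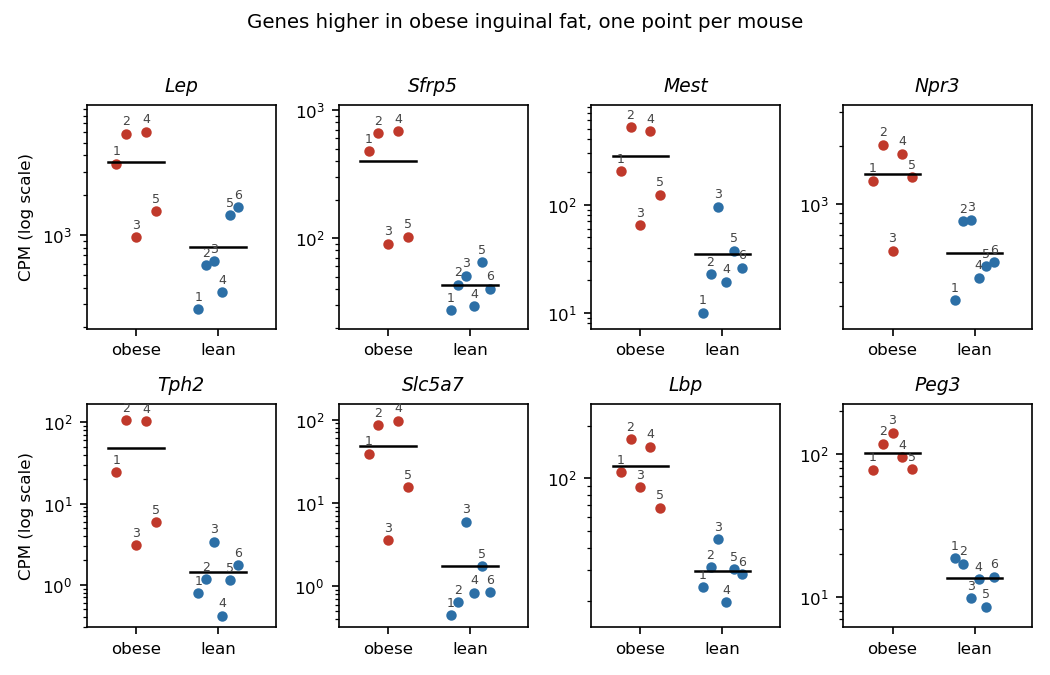
CPM of 8 genes higher in obese inguinal fat on log axes, with 5 obese mice on the left and 6 lean mice on the right of each panel, each point 1 mouse with its replicate number and the horizontal line the group mean. Obese mice 3 and 5 are the lowest of their group for Lep (963 and 1512 CPM), Sfrp5, Mest, Tph2 and Slc5a7, whereas all 5 are well above the lean mice for Peg3.

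Hormone and secreted factor genes of fat changed in both directions, with 8 of 18 called higher, Lep among them, and 7 lower. The first count was 4 without lean mouse 1 and 5 without lean mouse 2, 3 or 4, and the second was 4 without obese mouse 4. Adipsin (Cfd), a complement protease secreted by adipocytes, had 1705, 1016, 4825, 723 and 3463 CPM in obese mice, against 3481, 5186 and 5999 CPM in lean mice (-1.06 ± 0.33, adjusted p = 0.0117). It was lowest in mice 2 and 4 and overlapped with the lean range in mouse 3. Retinol binding protein (Rbp4) changed by -0.99 ± 0.28. The imprinted gene Nnat, in the list though its product is a membrane protein, rose by 1.24 ± 0.34 without reaching separation of the groups. Lbp, which carries bacterial lipopolysaccharide and is outside that list, had 109, 167, 89.2, 152 and 68.0 CPM in obese mice, against 19.7, 29.3 and 45.0 CPM in lean mice. Every obese mouse exceeded every lean mouse (1.98 ± 0.23, adjusted p = 1.03e-07).

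Among the genes of smallest p, the calcium exchanger Slc8a1 had 49.0, 70.4, 52.2, 68.8 and 36.3 CPM in obese mice, against 7.13, 10.6 and 15.9 CPM in lean mice (2.29 ± 0.26, adjusted p = 1.03e-07). Rgs7bp, which anchors regulators of G protein signalling to membranes, had 42.5, 60.5, 33.5, 61.5 and 88.2 CPM in obese mice, against 6.71, 10.8 and 15.2 CPM in lean mice (2.397 ± 0.31). Palld, an actin-bundling protein, changed by 1.44 ± 0.19. In the other direction Sorcs2, a sorting receptor, had 2.42, 2.28, 2.30, 2.08 and 2.67 CPM in obese mice, against 57.8, 79.5 and 148 CPM in lean mice (-5.22 ± 0.49, adjusted p = 1.25e-09), and the 5 obese mice were close together. Hsd11b1, which regenerates active glucocorticoid inside cells, had 60.0, 71.7, 72.6, 60.5 and 121 CPM in obese mice, against 449.6, 605 and 693 CPM in lean mice (-2.94 ± 0.30, adjusted p = 1.19e-08). None of these genes overlapped between groups. Fosb and Arc, both immediate early genes among the largest rises, were uneven instead. Fosb had 1.83, 62.1, 86.8, 4.65 and 1.58 CPM in obese mice, against 0.715, 1.76 and 3.41 CPM in lean mice (4.12 ± 0.90, adjusted p = 0.000595), so mice 2 and 3 were high and the other obese mice near the lean range. Arc had 60.9 CPM in obese mouse 3 and at most 7.26 CPM in the other obese mice, and its call was lost without mouse 3.

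Of 17 adipogenic transcription factors 5 were called lower and 1 higher, the second count being 2 without lean mouse 2 or obese mouse 5. Scaled by library totals alone, 4 were called lower and 6 higher. Pparg, the master regulator of adipocyte differentiation, had 112, 197, 122, 171 and 136 CPM in obese mice, against 226, 266 and 365 CPM in lean mice (-0.91 ± 0.21, adjusted p = 0.00109). Cebpa changed by -0.60 ± 0.17, Klf15, a glucocorticoid-responsive factor of amino acid and lipid metabolism, by -1.12 ± 0.22, and Ppara, the regulator of fatty acid oxidation, by -1.60 ± 0.36. Zfp423, a factor of preadipocyte commitment, rose by 0.98 ± 0.14. Insulin signalling genes were mostly not called (3 of 19 higher and 1 lower, against 6 and 0 when scaled by library totals alone, and 2 lower without obese mouse 5). Grb14, an adaptor that inhibits the insulin receptor, had 36.6, 53.8, 28.4, 48.7 and 55.7 CPM in obese mice, against 10.5, 14.3 and 26.7 CPM in lean mice (1.47 ± 0.26, adjusted p = 5.25e-05). Insr changed by -0.35 ± 0.12 (adjusted p = 0.0219, lost without lean mouse 4 or obese mouse 1, 2 or 4), and Irs1 was not called (-0.45 ± 0.23).

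Clock, glucocorticoid and hypoxia genes followed. Of 19 clock genes 9 were called lower and 1 higher, namely Clock itself (0.40 ± 0.12, lost without obese mouse 2). Bhlhe40, a repressor within the clock loop, had 51.1, 68.4, 33.99, 89.9 and 62.6 CPM in obese mice, against 147, 351 and 696 CPM in lean mice as lowest, median and highest (-2.64 ± 0.40). The groups were separate, though lean mice were far apart from each other. Dbp, a clock output factor, changed by -1.17 ± 0.32 and Nr1d1 by -0.82 ± 0.19, while Arntl (BMAL1) was not called. The sources used here do not state the hour of killing. The glucocorticoid target Tsc22d3 rose (0.95 ± 0.22), and of the glucocorticoid list 3 of 13 genes were called higher (1 without obese mouse 2) and 1, Hsd11b1, lower (2 without lean mouse 2, 5 or 6 or obese mouse 3). The hypoxia list was split, with 4 of 15 higher and 5 lower: Egln3, an oxygen-sensing prolyl hydroxylase, had 3.75, 4.34, 3.36, 3.86 and 3.16 CPM in obese mice, against 17.7, 21.6 and 22.7 CPM in lean mice (-2.50 ± 0.30, adjusted p = 1.4e-07), Vegfa changed by -0.68 ± 0.17, and Ddit4, an inhibitor of mTOR signalling, by 1.48 ± 0.29.

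Of 22 genes of sterol synthesis and uptake 9 were called lower and 2 higher (1 without lean mouse 1, 3 or 4 or obese mouse 1 or 3). Pmvk, Lss and Fdps, enzymes along the mevalonate and cholesterol route, changed by -1.58 ± 0.30, -1.44 ± 0.30 and -1.29 ± 0.35. Hmgcs1, an early enzyme of the route, had 499.8, 711, 352, 646 and 372 CPM in obese mice, against 106, 193 and 384 CPM in lean mice (1.33 ± 0.28, adjusted p = 0.000387). It thus went against the later enzymes, with obese mice 3 and 5 below the highest lean mouse. Of 23 antioxidant and glutathione genes 12 were called lower and 1 higher, with Gpx4, which repairs lipid peroxides, at -0.96 ± 0.20 and extracellular Sod3 at 0.77 ± 0.16. Peroxisomal genes were lower in 11 of 22 and higher in 0, for example Pex11a (-0.93 ± 0.18).

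Macrophage genes were higher in obese mice, with counts that depended on single animals. Of the resident macrophage genes 13 of 14 were called higher (median log2 fold change 0.97), of pan-macrophage genes 11 of 18 (median 0.99) and of lipid-associated macrophage genes 13 of 17 (median 0.87), with 1 of the last list lower (2 without lean mouse 2). Csf1r, the receptor for the growth factor of macrophages, had 299, 163, 433.04, 238 and 206 CPM in obese mice, against 62.2, 137 and 157 CPM in lean mice (1.16 ± 0.26, adjusted p = 0.000873). The groups were separate, and obese mouse 3 was highest. F13a1 of perivascular macrophages had 443.2, 252, 648, 262 and 308 CPM in obese mice, against 76.6, 195 and 233 CPM in lean mice (1.18 ± 0.27), with mouse 3 again at the top. The hyaluronan receptor Lyve1 changed by 1.07 ± 0.28 in the same manner. Adgre1, a general macrophage marker of the mouse, was 73.2 ± 44.2 CPM in obese mice and 26.4 ± 11.3 CPM in lean mice (1.46 ± 0.42, adjusted p = 0.00682), and its call was lost without obese mouse 3. Without that mouse the resident list had 6 calls and the pan-macrophage list 4.

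Markers of lipid-associated macrophages, which surround dying adipocytes, had another order among the obese mice. Itgax (CD11c) had 10.7, 8.47, 2.30, 17.0 and 6.02 CPM in obese mice, against 0.753, 2.34 and 3.44 CPM in lean mice (1.93 ± 0.55, adjusted p = 0.00681), so mouse 4 was highest and mouse 3 within the lean range. Mmp12, a macrophage elastase, had 33.0, 19.9, 3.63, 62.4 and 13.8 CPM in obese mice, against 0.837, 5.10 and 8.81 CPM in lean mice (2.45 ± 0.75, adjusted p = 0.011, lost without obese mouse 4). The lipid receptor Trem2 had 56.4, 12.03, 14.1, 40.1 and 18.7 CPM in obese mice, against 1.48, 10.2 and 15.7 CPM in lean mice (1.747 ± 0.66, adjusted p = 0.0411), a call lost in 7 of the 11 leave-one-out fits. The list's count was 6 without obese mouse 1, 7 without obese mouse 4 or lean mouse 4 and 8 without lean mouse 3. Spp1 was not called, at 115 CPM in obese mouse 1 and 95.0 CPM in lean mouse 5 and at most 15.7 CPM in any other mouse.

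**Figure D4:**
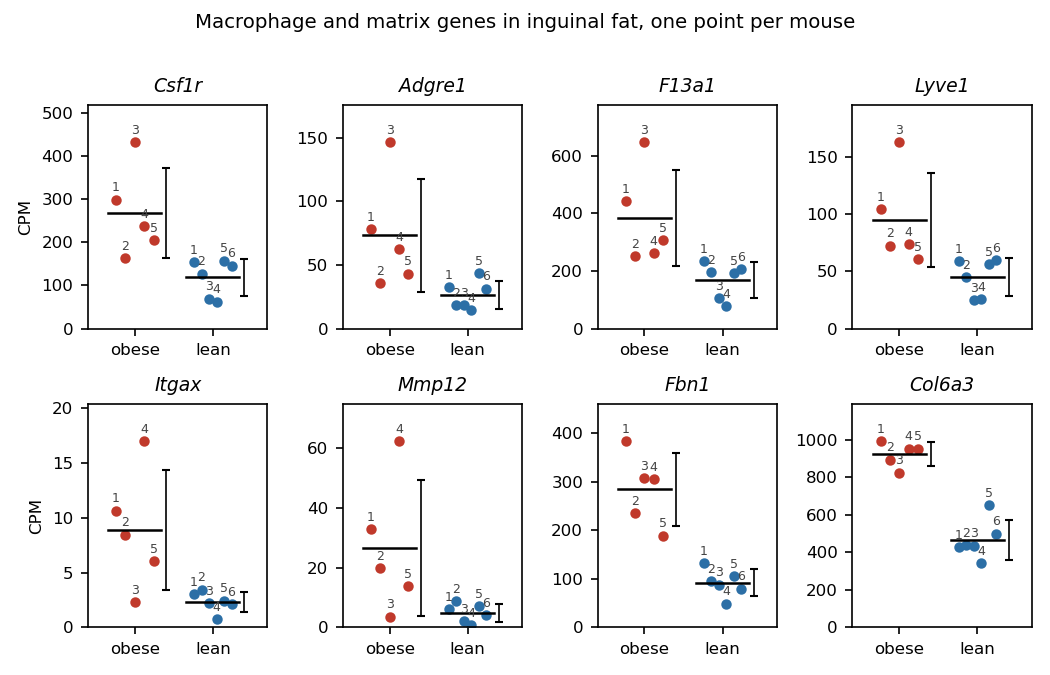
CPM of 6 macrophage genes and 2 matrix genes in inguinal fat on linear axes from 0, with 5 obese mice on the left and 6 lean mice on the right of each panel, each point 1 mouse with its replicate number, the horizontal line the group mean and the bar beside it the SD. Obese mouse 3 is highest for Csf1r, Adgre1, F13a1 and Lyve1 and lowest of its group for Itgax and Mmp12, while Col6a3 lies at 825 to 994 CPM in obese mice and 342 to 653 CPM in lean mice.

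Of 24 cytokine and chemokine genes 7 were called higher and 1 lower (4 higher and 0 lower without obese mouse 1, and 2 lower without obese mouse 4), among them Ccl6 (1.17 ± 0.36, lost without obese mouse 3) and Ccl2 (1.31 ± 0.50, adjusted p = 0.0437, lost in 8 of the 11 leave-one-out fits). Tnf was not called, at 1.21 to 3.96 CPM in obese mice and 0.322 to 4.01 CPM in lean mice, and Il6 did not pass the filter on low counts. Of 13 T cell and cytotoxic genes 0 were called by edgeR, with 0 at an unadjusted p under 0.05, and DESeq2 also called 0. Of 18 interferon-induced genes edgeR called 0, with 1 at an unadjusted p under 0.05, and DESeq2 called 1 lower. Of 5 neutrophil genes edgeR and DESeq2 called 0, with 0 at an unadjusted p under 0.05. Complement genes rose in 11 of 15 (5 without obese mouse 3) and fell in 1, the adipocyte product Cfd (2 fell without obese mouse 3). The anaphylatoxin receptor C3ar1 changed by 1.39 ± 0.44 and the C1q chain C1qb by 1.195 ± 0.33, each losing its call without 1 obese mouse (mouse 1 for C3ar1 and mouse 3 for C1qb). In the lysosome list 9 of 22 were called higher and 3 lower. The first count was 1 without obese mouse 1, 3 without obese mouse 4, 4 without obese mouse 3 or lean mouse 4 and 5 without lean mouse 3, and the second was 0 without lean mouse 3 or obese mouse 5 and 1 without obese mouse 3. Of 21 cell division genes 1 was called higher, against 12 without lean mouse 5, 4 without obese mouse 5, 2 without obese mouse 3 and 0 without lean mouse 2, 3 or 4 or obese mouse 1 or 4. The count was 10 with the muscle and lymph node signals as covariates and 10 by DESeq2. Mki67, a marker of dividing cells, had 48.7, 21.9, 17.3, 28.5 and 14.7 CPM in obese mice, against 4.60, 10.3 and 21.7 CPM in lean mice (1.25 ± 0.53, adjusted p = 0.0675).

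Extracellular matrix genes were widely higher. Of fibrillar and fibre-associated collagens 11 of 14 were called higher, of basement membrane genes 11 of 16 and of matricellular, elastic fibre and crosslinking genes 19 of 24, with 0 lower in these lists. Col6a3, a chain of the microfibrillar collagen around adipocytes, had 994, 893, 825, 953 and 953 CPM in obese mice, against 342, 436.5 and 653 CPM in lean mice (0.99 ± 0.24, adjusted p = 0.00181). Fbn1, which builds elastic microfibrils and is the precursor of asprosin, had 384, 235, 308, 305 and 189 CPM in obese mice, against 48.9, 91.4 and 132 CPM in lean mice (1.63 ± 0.26, adjusted p = 1.3e-05). Both were separate, and the obese mice were close together for Col6a3. Col12a1 and Col16a1, collagens on the surface of fibrils, changed by 1.93 ± 0.40 and 1.84 ± 0.37. The crosslinking enzyme Lox changed by 1.05 ± 0.21, the matrix adaptor Sparc by 0.99 ± 0.19 and Col18a1 of the basement membrane, the source of endostatin, by 1.04 ± 0.20. The major fibrillar chain Col1a1 had 1659, 655, 1292, 1017 and 887 CPM in obese mice, against 261, 528 and 821 CPM in lean mice (1.07 ± 0.41, adjusted p = 0.0436), a call lost in 8 of the 11 leave-one-out fits. Adamts5, a protease that cuts proteoglycans, had 627, 839.9, 376, 996 and 649 CPM in obese mice, against 172, 240.2 and 296 CPM in lean mice (1.55 ± 0.24, adjusted p = 7.63e-06).

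Progenitor and Wnt genes belonged to the same side. Of the progenitor and fibroblast genes 11 of 16 were called higher and 0 lower. Pi16, a marker of a universal fibroblast population in mouse connective tissue, had 728, 484, 849, 659 and 555 CPM in obese mice, against 141.8, 303 and 334 CPM in lean mice (1.34 ± 0.26, adjusted p = 0.00016), without overlap. Cd248 and Thy1 of stromal cells changed by 1.34 ± 0.24 and 1.395 ± 0.34, and Pdgfra by 0.67 ± 0.22 (adjusted p = 0.0165, lost without obese mouse 3). Of the Wnt genes 11 of 24 were called higher and 0 lower: beside Sfrp5 they held the ligand Wnt2 (1.56 ± 0.33), the receptor Fzd5 (1.01 ± 0.16) and the secreted inhibitor Sfrp4 (1.44 ± 0.38). Axin2, a target gene that Wnt signalling induces, was not called. Of the endothelial genes 3 of 14 were called higher and 0 lower, for example Vwf of blood clotting (0.41 ± 0.14, lost without lean mouse 3 or 4 or obese mouse 4). Without lean mouse 4, obese mouse 2 or obese mouse 4 the count was 1, without obese mouse 2 or 4 another 1 was called lower, and with library totals alone 8 were called higher. Other lists counted in the text also moved by more than 1.5 times with library totals alone. These were lysosome (17 higher and 0 lower), cell division (10 higher), glucocorticoid (5 higher), interferon (3 higher), antioxidant (2 higher and 7 lower) and peroxisome (1 higher and 7 lower). Fatty acid uptake (1 higher and 3 lower), lipolysis (3 lower), secreted factors (4 lower) and cytokines (0 lower) moved as well. So did lipogenic regulators, glycolysis and thermogenic genes (1 higher each). Lists not counted in the text moved too. For example, TGF-beta, BMP and activin genes went from 9 to 15 higher and endoplasmic reticulum stress genes from 2 to 7.

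The inguinal response was then set against the epididymal response of the same mice, in 1 fit to the 94 libraries that blocked on the mouse. A positive depot difference means a higher obese-to-lean ratio in inguinal fat. It was called for 195 of 14749 genes (1.32%), 96 positive (0.651%) and 99 negative (0.671%). The depots came from the same mice and are not independent, and the fold changes given for each depot come from its own fit. In the epididymal fit by itself 23.4% of 14323 genes were called (14.1% higher and 9.31% lower). The count of depot differences was 90 to 115 without lean mouse 4 or 5 or obese mouse 1, 2 or 4, 56 with only the 22 libraries of the obesity time and 36 with no mouse block. Slc2a5 had log2 fold changes of -7.58 in inguinal and -3.49 in epididymal fat (depot difference -4.16, adjusted p = 0.0013). Aspg, an asparaginase, had -5.74 in inguinal and -1.07 in epididymal fat (depot difference -4.55, adjusted p = 0.000469), and Sorcs2 had -5.22 and -0.77 in the same order (depot difference -4.88, adjusted p = 0.0021). Of the thermogenic list 6 members had a negative call, among them Otop1, which fell in inguinal fat (-1.30) and rose in epididymal fat (2.38, adjusted p = 0.00198; depot difference -3.43, adjusted p = 0.00192). Cidea was also among them (depot difference -1.80, adjusted p = 0.0354), whereas the depot difference of Ucp1 missed the call (-6.43, adjusted p = 0.0553).

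Genes for enzymes of fuel use also differed by depot. Of the citrate cycle list 5 had a negative call, of glycolysis 4 and of fatty acid oxidation 3, with 0 positive in each. Hadhb had log2 fold changes of -1.49 in inguinal and -0.23 in epididymal fat (depot difference -1.21, adjusted p = 0.000473), and Pkm had -1.76 and -0.87 (depot difference -0.87, adjusted p = 0.00804). Of the 16 lipogenic enzymes 2 had a negative call and 0 a positive one. Elovl6 was among the 2 (-5.62 in inguinal and -4.16 in epididymal fat, depot difference -1.62, adjusted p = 0.00282). Fasn was not called (depot difference -0.70, adjusted p = 0.249). Genes with a greater rise in inguinal fat included Lbp (depot difference 1.35, adjusted p = 0.000469), Rgs7bp (1.67, adjusted p = 0.0013) and the terminal complement component C6, with 1.77 in inguinal and -0.32 in epididymal fat (2.13, adjusted p = 0.00192). Aldh1a1, which makes retinoic acid, had 0.95 in inguinal and -0.23 in epididymal fat. For the macrophage genes Trem2 (-1.44, adjusted p = 0.632) and Mmp12 (-3.28, adjusted p = 0.0995) the depot difference was not called, which does not show that the depots responded alike.

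**Figure D5:**
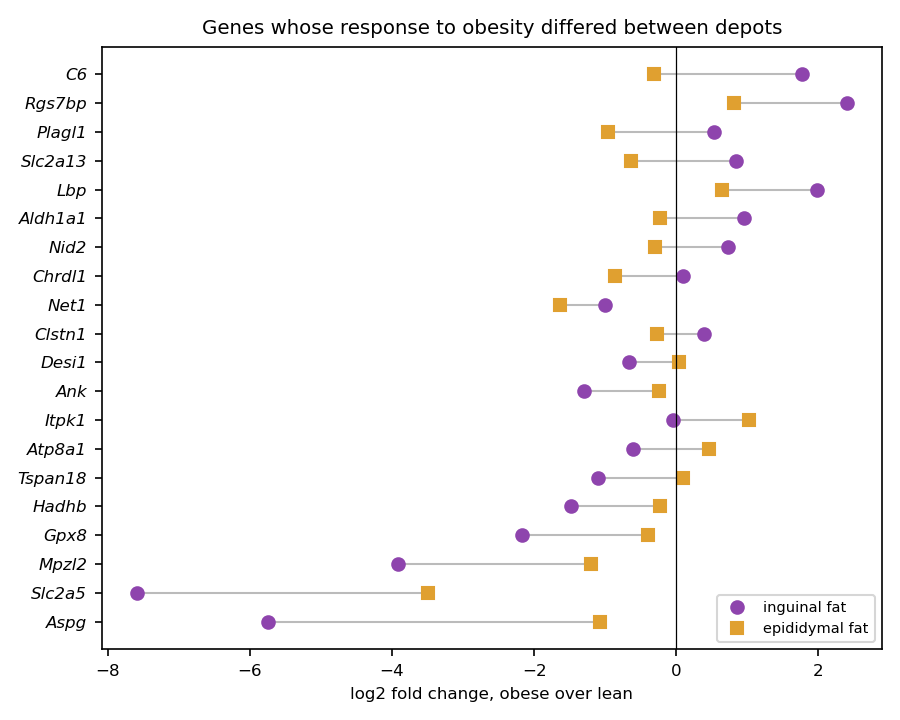
Log2 fold change, obese over lean, in inguinal fat (purple circles) and in epididymal fat (orange squares) of the same 11 mice, for the 10 genes of smallest p in each direction of the depot difference, ordered from the most positive difference at the top. Slc2a5 at -7.58 and -3.49 and Aspg at -5.74 and -1.07 fell more in inguinal fat, and C6 and Rgs7bp stand at the other end.

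The last comparison asked which inguinal differences of obese mice were unlike those of mice 2 weeks after return to the low-fat diet, each set against its own lean controls with no library in common. It called 556 of 13899 genes (4.00%), 294 positive (2.12%) and 262 negative (1.89%). Lep had a log2 fold change of 2.13 in obesity and 0.12 at 2 weeks (difference 2.01, adjusted p = 0.0227). Tph2 stood at 5.12 and 0.45 (4.67, adjusted p = 0.00448), Trim67, a ubiquitin ligase, at 2.10 and -0.54 (2.64, adjusted p = 0.000225) and Adamts5 at 1.55 and -0.36 (1.91, adjusted p = 0.000866). The cytokine Lif was 1.17 in obesity and -0.87 at 2 weeks (2.03, adjusted p = 0.00016). In the negative direction, Hsd11b1 was -2.94 in obesity and -0.90 at 2 weeks (-2.04, adjusted p = 0.00207) and Bhlhe40 -2.64 and -0.20 (-2.44, adjusted p = 0.00467). Of the clock list 5 members had a negative call and 0 a positive one. For most lipogenic genes the difference was not called: Fasn stood at -3.35 in obesity and -3.23 at 2 weeks (difference -0.13, adjusted p = 0.931) and Elovl6 at -5.62 and -5.57 (-0.05, adjusted p = 0.979). Of the 16 lipogenic enzymes 1 was called, Scd2, a desaturase with -1.11 in obesity and -3.13 at 2 weeks (2.01, adjusted p = 0.0175). Thbs1, a matricellular protein, was 1.72 in obesity and 4.01 at 2 weeks (-2.30, adjusted p = 0.0451). The comparison called 289 genes without obese mouse 4 and 352 without lean mouse 4.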

How the data were processed

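Poly(A) RNA of 94 libraries, 47 from inguinal and 47 from epididymal fat, was sequenced in read pairs on an Illumina NovaSeq, per the labels' protocols. Per the submitters' processing notes, DESeq2 1.38.3 in R 4.2.2 and STAR 2.4.1c were among the tools, with the build mm10. The sources used here do not state the read counter, its annotation or its use of strand. The authors deposited raw counts per gene (20411 genes), and these counts were used as deposited.

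Here the counts were filtered with filterByExpr, scaled by TMM and tested with edgeR 4.0.16 (R 4.3.3, limma 3.58.1) by its quasi-likelihood test. The fit held the 47 inguinal libraries in 8 groups, which then share 1 estimate of the spread, and p-values were adjusted by Benjamini-Hochberg over all 13899 genes tested. The difference from epididymal fat came from a fit on 94 libraries with mouse as a block, and the difference from 2 weeks from the inguinal fit. CPM are counts per 1000000 of the TMM-scaled library size. Fold changes are log2, obese over lean, with the standard error. Alternatives were DESeq2 1.42.0, other scalings, no filter, signal covariates, part of the libraries, a replicate block and leaving out each of 11 mice.

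In the authors' deposited table of DESeq2 adjusted p-values and log2 fold changes, 4427 genes were called for the same contrast, 2202 higher and 2225 lower, and 4171 of them were also called here. On simulated data (13785 genes, 100 changed 2-fold and 100 changed 4-fold) the test recovered 70% of 2-fold and 91% of 4-fold changes, with 11 false calls. The changed genes were few, drawn at random and balanced between directions, whereas 30.2% of genes were called in the data. The shift in composition through Scd1 and Fasn was not built in, so these rates need not hold for the data. No pair of libraries agreed within sampling noise (chi-square per degree of freedom at least 13.6 among obese and 10.8 among lean mice).

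Genes were named from 62 lists (920 genes) and by rank: the 15 largest changes and 15 smallest p each way above a mean of 5 CPM, and the 10 smallest p each way for the other 2 contrasts. A subset of both is described. The members and lists were chosen with earlier results of these data known. Gene positions come from the GENCODE annotation of the mouse, and promoter sequences from RefSeq on GRCm38.p6. For 6 of the 156 genes named, more than 25% of the exonic bases overlap exons of other genes on either strand. These are Cox5a, Cpt1b, Dbp, Fdps, Irs1 and Mest. Their counts are uncertain, as may be those of Gapdh and Cycs, which have processed pseudogenes in the mouse. Listed genes without a row in the table, among them the mitochondrially encoded ones, were not analysed here, and some genes are not reported here.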

Additional observations from a re-analysis of the deposited data

Results flagged for a closer look

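In 30 of 312 groups tested (156 named genes, obese and lean), 1 mouse lay far from the others. The limit used flags about 1 group in 20 where values are normally distributed. That was not tested for these CPM, and the genes are not independent, so no excess over chance can be read from the count. The value given is the gap to the nearest mouse as a share of the group's range. Obese mouse 5 was the high one for 15 genes, most of them of lipid and glucose metabolism: Acaca (0.858), Acly (0.902), Dgat1 (0.827), Elovl6 (0.857), Fasn (0.794), Gpam (0.900), Gpd2 (0.726), Hsd11b1 (0.792), Pdha1 (0.772), Pdk1 (0.868), Plin1 (0.729), Slc2a5 (0.904), Thrsp (0.745), Tkt (0.813) and Ucp1 (0.863). All of these but Plin1, which was not called, were called lower in obese mice, so for them mouse 5 was the obese mouse nearest to the lean group. Lean mouse 3 was the high one for Hmgcs1 (0.644), Mest (0.682), Rbp4 (0.715), Slc5a7 (0.765) and Trim67 (0.688). Lean mouse 5 was the high one for Ccl2 (0.854), Col12a1 (0.698), Itgad (0.651) and Spp1 (0.879). Lean mouse 2 was high for Aldh1a1 (0.636) and Plin4 (0.71). The others were Arc in obese mouse 3 (highest, 0.912), Gpx4 in obese mouse 3 (lowest, 0.782), Spp1 in obese mouse 1 (highest, 0.900) and Tsc22d3 in obese mouse 2 (highest, 0.742).

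The response to obesity differed between inguinal and epididymal fat for 21 named genes, by the test of the depot difference given in the report (log2, inguinal minus epididymal, edgeR adjusted p under 0.05). It was positive for Aldh1a1 (1.24), C6 (2.13), Cfd (0.87), Lbp (1.35), Mest (1.69), Rgs7bp (1.67) and Sez6l (2.98). It was negative for Aspg (-4.55), Cidea (-1.80), Cpt1b (-2.44), Cycs (-0.71), Egln3 (-1.12), Elovl6 (-1.62), Hadha (-0.96), Hadhb (-1.21), Otop1 (-3.43), Pdk1 (-0.77), Pdk4 (-1.99), Pkm (-0.87), Slc2a5 (-4.16) and Sorcs2 (-4.88).

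The inguinal difference in obesity departed from that of the mice returned to the low-fat diet for 2 weeks for 23 named genes (log2, obesity minus 2 weeks, edgeR adjusted p under 0.05). It was positive for Adamts5 (1.91), C6 (1.53), Dgat2 (1.54), Fzd5 (0.75), Hmgcs1 (1.68), Lbp (1.39), Lep (2.01), Lif (2.03), Pkp1 (4.79), Rgs7bp (1.86), Scd2 (2.01), Slc2a10 (1.06), Slc5a7 (4.19), Slc8a1 (2.04), Thy1 (1.61), Tph2 (4.67), Trim67 (2.64) and Zfp423 (0.72). It was negative for Bhlhe40 (-2.44), Hcar1 (-1.36), Hsd11b1 (-2.04), Klf15 (-1.02) and Thbs1 (-2.30).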

How the results depend on the processing

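Of the 137 named genes called in inguinal fat, 137 kept their direction and their call with DESeq2 size factors, a term for the mouse number series or the signal covariates, 133 with library totals alone, 135 without the filter, 132 with only the 11 libraries and at least 128 without any 1 mouse. The number was 119 with replicates 1 to 3 alone, 99 with a replicate block and 92 with replicates 4 to 6 alone. The mouse number series divides replicates 1 to 3 from replicates 4 to 6, which carry separate runs of mouse numbers in both groups. No called gene reversed. DESeq2 called 4943 genes.

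Scaled by library totals alone, 4650 genes were called higher and 973 lower. Replicates 1 to 3 alone gave 2583 calls (1325 higher, 1258 lower) and replicates 4 to 6 alone 1327 (722 higher, 605 lower). Leaving out 1 mouse gave 3372 to 4298 calls (1650 to 2141 higher, 1722 to 2184 lower).

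The depot difference gave 36 calls with no mouse block (18 positive, 18 negative), 56 with only the 22 libraries of the obesity time (23 and 33), and 90 to 216 without 1 mouse (37 to 117 positive, 48 to 121 negative). The difference from 2 weeks gave 290 calls with only the 23 libraries of its 4 groups (184 and 106) and 289 to 749 without 1 mouse (162 to 378 positive, 127 to 371 negative).

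The replicate numbers do not pair the mice: same-numbered obese and lean mice deviated from their group means with correlations of 0.14, 0.05, -0.48, -0.37 and -0.27. With a replicate block the obesity difference gave 2004 calls (860 higher, 1144 lower), and the difference from 2 weeks 226 (153 and 73).

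The log2 fold changes that turned sign were all of genes that were not called. With library totals alone these were Adipoq (0.029), Axin2 (0.090), Cd36 (0.17), Dio2 (0.026), Hoxc9 (0.21), Lpl (0.17), Plin1 (0.10) and Tbx15 (0.17). With replicates 4 to 6 alone these were Cd36 (0.036), Hoxc9 (0.074), Lpl (0.21), Plin1 (0.069) and Spp1 (-1.32). With replicates 1 to 3 alone these were Axin2 (0.50) and Tbx15 (0.18). Axin2 stood at 0.30 with a replicate block. Tbx15 stood at 0.021 with a term for the mouse number series. Without 1 mouse each, Adipoq ran from -0.28 to -0.17, Axin2 ran from -0.25 to 0.20, Cd36 ran from -0.21 to 0.015, Dio2 ran from -0.44 to 0.039, Hoxc9 ran from -0.071 to 0.036, Lpl ran from -0.19 to 0.058, Plin1 ran from -0.26 to -0.096, Spp1 ran from -0.95 to 2.29 and Tbx15 ran from -0.23 to 0.039. The cause of these shifts was not tested. The smaller fits held fewer libraries, and with library totals alone the median of all genes stood 0.24 higher on the log2 scale. Slc2a5, near 0 in most obese mice, has a fold change whose size the depth limits.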
